A study of Rattus norvegicus with 9 samples.

Results

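Myofibroblast nuclei of the rat kidney were the smallest population in a single-nucleus ATAC sequencing (snATAC-Seq) data set, in which a transposase cuts open chromatin and each nucleus carries a barcode. They were taken as all nuclei that the authors had labelled MyoFib, which gave 223 of 53298 nuclei, or 0.418% (exact 95% interval 0.365 to 0.477%), spread over 9 libraries. The libraries came from whole kidneys of male Sprague-Dawley rats, with an age label of 6 weeks. All intervals of shares and ratios are exact and cover counting error only.

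Control rats (2 libraries) had sham surgery, sesame oil and tap water. DOCA rats (2 libraries) lost the left kidney, drank salt water and were injected weekly with 50 mg/kg of deoxycorticosterone acetate, a steroid that acts on the mineralocorticoid receptor, and were gavaged with vehicle. The Finerenone and Spironolactone rats had the same surgery, steroid and salt plus a daily drug by gavage. The Amiloride rats had the steroid, the salt and a daily drug, and the study describes loss of a kidney for its model as a whole, but its list of operated groups leaves this group out. Finerenone at 10 mg/kg (2 libraries) and spironolactone at 50 mg/kg (2 libraries) block that receptor, and amiloride at 20 mg/kg (1 library) blocks the epithelial sodium channel. Surgery, steroid and salt therefore cannot be told apart in DOCA against Control. In each group with 2 libraries, 1 was made with the scATAC kit and 1 with the Multiome kit, and the Amiloride library was a Multiome library. Library names have a common stem in 3 pairs (both of DOCA, both of Spironolactone, and Control Multiome with Amiloride). The last pair differs in treatment, so a common stem need not mark the same rat. Separate rats are still not assured within DOCA and within Spironolactone, and P values then measure the spread between these libraries.

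Myofibroblasts are contractile mesenchymal cells that carry smooth muscle actin and lay down collagen, and they are known as the main source of matrix in renal fibrosis. They are thought to arise largely from resident fibroblasts and from pericytes around capillaries, and smooth muscle and mesangial cells share much of their contractile program. Synpo2, which encodes an actin-binding protein of contractile cells, was the gene that the study named for this label. Acta2, Tagln and Myh11, which encode smooth muscle actin, transgelin and smooth muscle myosin, are the usual markers, but accessibility at these genes was not analysed here. The label was therefore not checked against its markers, and whether it separates myofibroblasts from smooth muscle, pericytes or mesangial cells cannot be told from labels and positions alone.

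The number of nuclei per library ran from 1817 to 15235, and the number of MyoFib nuclei from 5 to 56. MyoFib was the rarest of the 12 labels in 7 of the 9 libraries, was level with Mac in the Control Multiome library (31 nuclei each) and was more frequent than podocytes in the Spironolactone scATAC library. The 4 scATAC libraries held 33 of the MyoFib nuclei and the 5 Multiome libraries 190. With counts this low, the intervals of single libraries are wide.

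As a share of all nuclei, MyoFib was lowest in DOCA with both kits. In Control, 8 of 2455 nuclei were MyoFib in the scATAC library (0.326%, interval 0.141 to 0.641%) and 31 of 5095 in the Multiome library (0.608%, 0.414 to 0.863%). In DOCA, the shares were 0.202% (5 of 2471, 0.0657 to 0.472%) and 0.284% (26 of 9143, 0.186 to 0.416%). The Control values were both above the DOCA values, although the Control scATAC share was little above the DOCA Multiome share.

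The Finerenone libraries lay close to each other, at 0.495% (9 of 1817, 0.227 to 0.938%) with the scATAC kit and 0.538% (33 of 6132, 0.371 to 0.755%) with the Multiome kit. The Spironolactone libraries were at 0.404% (11 of 2721, 0.202 to 0.722%) and 0.289% (44 of 15235, 0.210 to 0.388%). The Multiome library of Spironolactone was level with that of DOCA, and its scATAC library was above that of Control. Amiloride had the highest share of the 9 libraries, 0.681% (56 of 8229, 0.514 to 0.883%). Within the Multiome kit the order was DOCA, Spironolactone, Finerenone, Control and Amiloride, and within the scATAC kit DOCA, Control, Spironolactone and Finerenone. The intervals of all neighbours in these orders overlapped. The means were 0.467% ± 0.20 in Control, 0.243% ± 0.0580 in DOCA, 0.517% ± 0.0303 in Finerenone and 0.347% ± 0.0816 in Spironolactone (SD, n = 2 each).

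**Figure D1:**
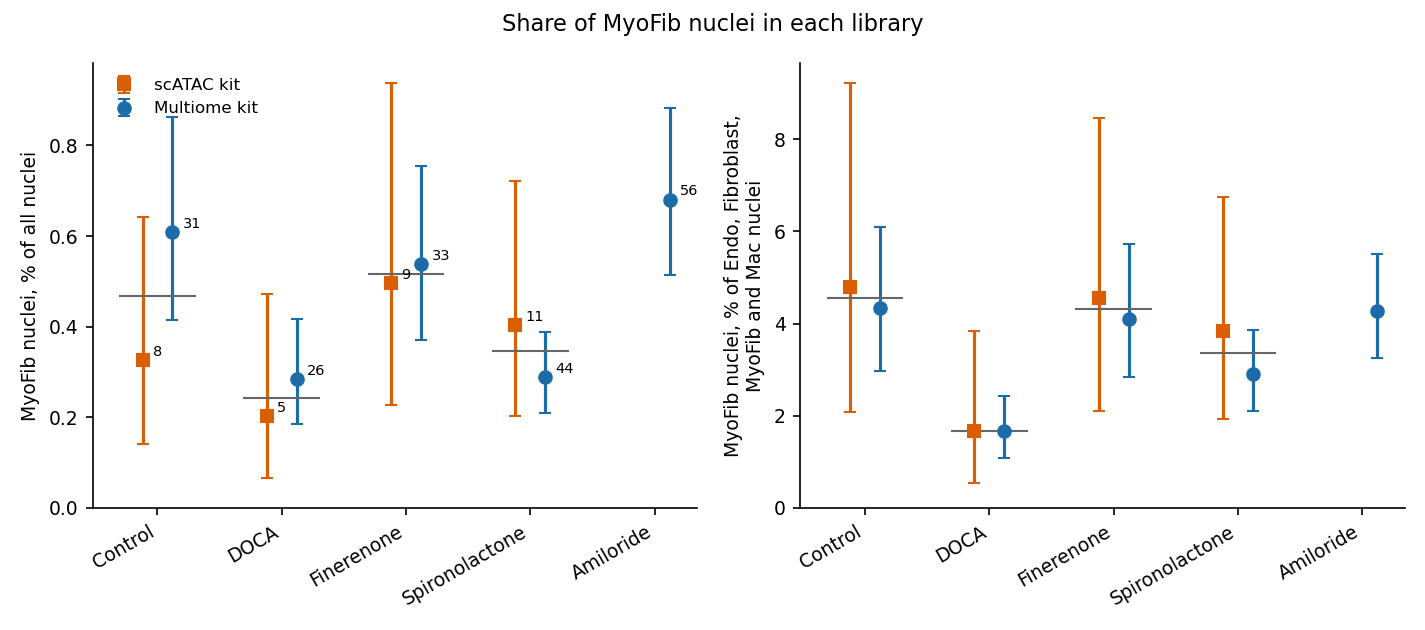
Share of MyoFib nuclei (y axes, percent) of all nuclei (left, with the number of MyoFib nuclei beside each point) and of Endo, Fibroblast, MyoFib and Mac nuclei (right) in each library by group, with exact 95% intervals. Orange squares are scATAC and blue circles Multiome libraries, grey lines mark the mean of 2 libraries, and DOCA is lowest with both kits in each panel, at 1.66% and 1.67% on the right.

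Whether these differences exceeded the spread between libraries was tested with limma on the log2 odds of each of the 12 labels, with group and kit as terms and P values adjusted over the 12 labels (Benjamini-Hochberg). MyoFib did not pass the threshold of 0.05 in any contrast of this fit, which used all libraries. DOCA minus Control was -0.87 on the log2 scale (SE 0.56, 95% interval -2.01 to 0.28, limma adjusted p = 0.199), in a contrast in which 25% of labels passed. This difference was -1.30 without the scATAC and -0.43 without the Multiome library of Control. Finerenone minus DOCA was 1.08 (SE 0.56, interval -0.067 to 2.22, limma adjusted p = 0.221), where 16.7% of labels passed. Amiloride minus DOCA was 1.35 (SE 0.72, interval -0.11 to 2.80, limma adjusted p = 0.125), where 33.3% passed, and this contrast rests on a lone Amiloride library that was taken to vary like the other groups.

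Spironolactone minus DOCA was 0.47 (interval -0.67 to 1.61, limma adjusted p = 0.589), and 0% of labels passed there. Without the Spironolactone scATAC library this difference was -0.012. For the 2 receptor blockers, which differ in that spironolactone is a steroid and finerenone is not, the doses differed, and Finerenone minus Spironolactone was 0.61 (interval -0.54 to 1.75, limma adjusted p = 0.650), where 8.33% of labels passed. The interval leaves room for a more than 3-fold difference in that direction as well as for none. The kit term of MyoFib was small, with Multiome minus scATAC at 0.19 (SE 0.40, interval -0.62 to 1.00, limma adjusted p = 0.853), although 25% of labels differed by kit. It depended on the denominator, and with labels other than proximal tubule it was -0.73 (interval -1.38 to -0.074, limma adjusted p = 0.0687). When the group labels were permuted within each kit, an exact test of this share over the 5 groups gave p = 0.242. The contrasts with DOCA all share its 2 libraries.

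Single pairs of libraries gave odds ratios that were more precise with the Multiome kit, which had more nuclei. Within the Multiome kit, the odds ratio of DOCA to Control was 0.466 (interval 0.265 to 0.812), and within the scATAC kit 0.620 (0.159 to 2.15). Finerenone to DOCA was 1.90 (1.1 to 3.31) with the Multiome kit and 2.45 (0.737 to 9.34) with the scATAC kit. Spironolactone to DOCA was 1.02 (0.611 to 1.72) with the Multiome kit and 2.00 (0.640 to 7.36) with the scATAC kit. These intervals compare pairs of libraries, not groups.

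Most nuclei of a kidney are tubular, so MyoFib was next set against Endo (endothelium), Fibroblast and Mac (macrophages) alone. Here Control, Finerenone and Amiloride lay together and DOCA was lower. MyoFib made up 4.79% of the 167 nuclei of these 4 labels in the Control scATAC library (interval 2.09 to 9.22%) and 4.34% of 715 in the Multiome library (2.96 to 6.10%). In DOCA it made up 1.66% of 301 (0.542 to 3.83%) and 1.67% of 1556 (1.09 to 2.44%). Both DOCA values were below those of every other library.

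Finerenone was at 4.55% of 198 nuclei (2.10 to 8.45%) and 4.11% of 803 (2.85 to 5.72%). Spironolactone was intermediate, at 3.83% of 287 (1.93 to 6.75%) and 2.90% of 1519 (2.11 to 3.87%), and Amiloride was at 4.28% of 1309 (3.25 to 5.52%). The means were 4.56% ± 0.322 in Control, 1.67% ± 0.00694 in DOCA, 4.33% ± 0.308 in Finerenone and 3.36% ± 0.662 in Spironolactone (SD, n = 2 each). The gap between the DOCA libraries, with 5 and 26 such nuclei, was far smaller than their counting error.

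Over the 5 groups this share differed with p = 0.0417 by the exact permutation within kits, and p = 0.0625 after adjustment over the 3 measures tested in this way, where 0.00833 is the smallest p the design allows. It is therefore past the threshold only before adjustment. Without the scATAC or the Multiome library of Control (exact permutation p = 0.117 and 0.104), either Finerenone library (0.10 and 0.0938, scATAC first) or the DOCA scATAC library (0.05), it was not under 0.05 even unadjusted.

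The within-kit differences of this share were similar with both kits. DOCA minus Control was -1.52 on the log2 odds scale with the scATAC kit and -1.41 with the Multiome kit. Finerenone minus DOCA was 1.43 and 1.33, Spironolactone minus DOCA 1.16 and 0.80, and Amiloride minus DOCA 1.38 with the Multiome kit. With counting error only, the mean over kits had an interval of -2.34 to -0.59 for DOCA minus Control, 0.53 to 2.24 for Finerenone minus DOCA and 0.16 to 1.80 for Spironolactone minus DOCA. None of these intervals included 0, whereas that of Finerenone minus Spironolactone (0.40, -0.32 to 1.11) did.

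Limma fitted to these 4 labels alone put MyoFib past the threshold in DOCA minus Control (-1.47, limma adjusted p = 0.00410), where 75% of the 4 labels passed. Endo was lower by more in that contrast (-1.69, limma adjusted p = 0.0315), with 47.9% and 56.5% of the 4 labels in Control against 22.9% and 27.8% in DOCA (scATAC first). As a share of all nuclei, however, Endo was lower by less than MyoFib (-0.51, limma adjusted p = 0.446, against -0.87). MyoFib was the only label to pass in Finerenone minus DOCA (1.38, limma adjusted p = 0.00527) and in Spironolactone minus DOCA (0.98, limma adjusted p = 0.0209), so that 25% passed in each. It was not the label that differed most. Mac was at -2.15 and -1.43 in these contrasts (SE 0.83), and Endo at 1.07 in Spironolactone minus DOCA (SE 0.50), against an SE of 0.19 for MyoFib. In Amiloride minus DOCA (1.45, limma adjusted p = 0.0116), again with a lone Amiloride library, all labels passed (100%), and in Finerenone minus Spironolactone (0.40, limma adjusted p = 0.292) 0% did. These P values are too small as a measure of error, because the SE of DOCA minus Control in that fit was 0.19 and the counting error of the same difference was 0.45. Leaving out the DOCA scATAC library also took DOCA minus Control to a limma adjusted p of 0.0689, Finerenone minus DOCA passed in 6 of 9 such fits, Spironolactone minus DOCA in 4 of 9 and Amiloride minus DOCA in 7 of 8.

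With all labels other than proximal tubule (PCT, PST and iPT) as the denominator, MyoFib passed in DOCA minus Control (-1.30, limma adjusted p = 0.0165), Finerenone minus DOCA (1.29, limma adjusted p = 0.0232) and, with a lone Amiloride library whose spread comes from the other groups, Amiloride minus DOCA (1.62, limma adjusted p = 0.0199). The shares of the 9 labels that passed in these contrasts were 44.4%, 33.3% and 44.4%. Spironolactone minus DOCA did not pass (0.99, limma adjusted p = 0.152). Macrophages are part of this denominator too, and their DOCA minus Control was 2.73. For MyoFib, the sign of DOCA minus Control was thus the same with every denominator, and the call depended on the denominator.

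**Figure D2:**
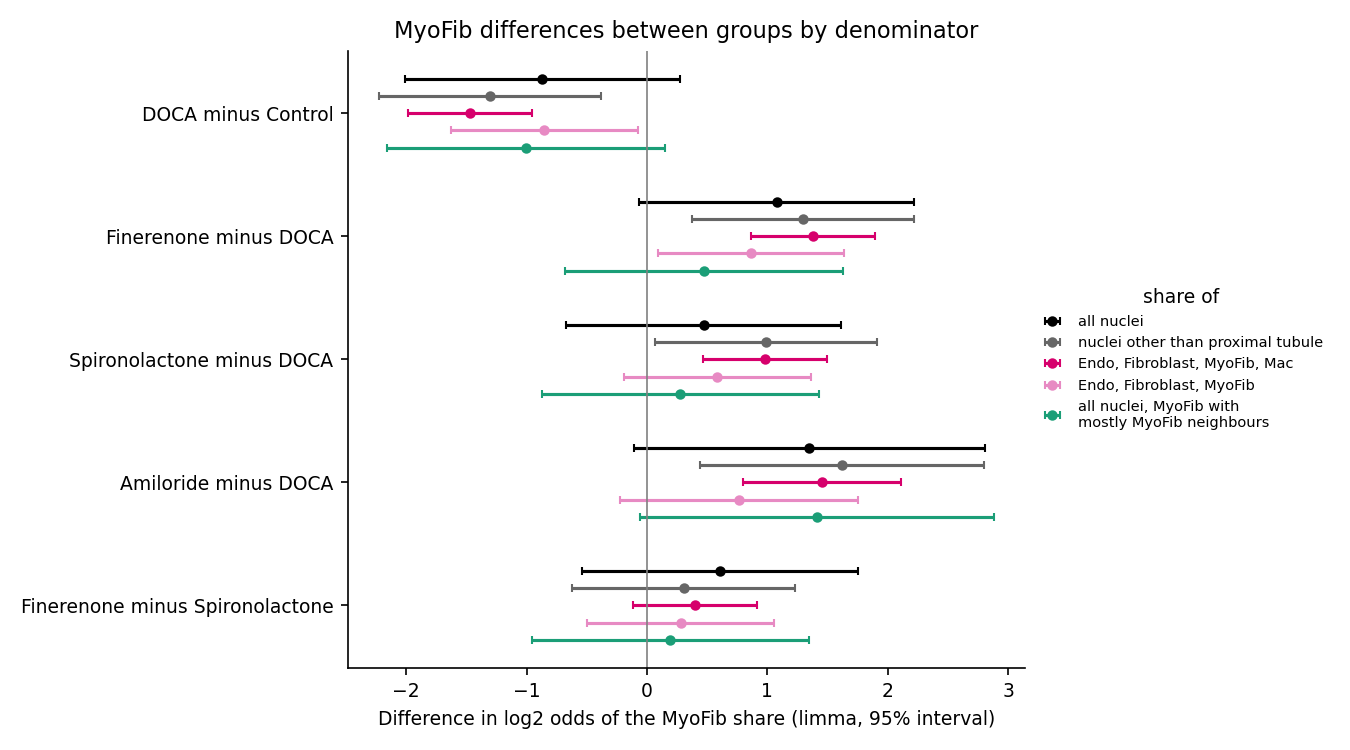
Differences between groups in the log2 odds of MyoFib (x axis) for the contrasts named on the y axis, as limma estimates with 95% intervals, with a color for each denominator or definition of MyoFib. DOCA minus Control lies below 0 in all 5 and Finerenone minus DOCA above 0 in all 5, but the intervals of both include 0 with all nuclei as denominator, for all MyoFib nuclei (black) and for those with mostly MyoFib neighbours (green).

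Macrophages moved most in that compartment, with DOCA minus Control at 3.05 in the fit of the 4 labels (limma adjusted p = 0.0315). Mac nuclei made up 11.4% and 4.34% of the 4 labels in Control (scATAC first), 33.9% and 44.5% in DOCA, 18.7% and 8.22% in Finerenone, 13.2% and 26.8% in Spironolactone and 4.74% in Amiloride. More macrophages and fewer MyoFib nuclei cannot be told apart in a share of these labels. With Mac left out of the fit, DOCA minus Control was -0.85 (limma adjusted p = 0.0518), Finerenone minus DOCA 0.86 (limma adjusted p = 0.0981), Spironolactone minus DOCA 0.58 (limma adjusted p = 0.162) and Amiloride minus DOCA 0.76 (limma adjusted p = 0.115). None passed without macrophages, a setting chosen after the data were seen.

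The ratio to Fibroblast, the label of the collagen-producing cells of the interstitium, does not involve macrophages. Control held 13.3 MyoFib nuclei per 100 Fibroblast nuclei with the scATAC kit (8 against 60, interval 5.51 to 28.0) and 12.4 with the Multiome kit (31 against 249, 8.28 to 18.1). DOCA held 4.00 (5 against 125, 1.28 to 9.59) and 6.44 (26 against 404, 4.15 to 9.57). The 2 DOCA libraries had the lowest ratios of the series.

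Finerenone held 8.65 (9 against 104, 3.85 to 17.1) and 11.6 (33 against 284, 7.85 to 16.7), and Spironolactone 9.57 (11 against 115, 4.65 to 17.8) and 9.71 (44 against 453, 6.96 to 13.3). Amiloride stood apart at 34.1 (56 against 164, 24.7 to 46.5), an interval above those of the other 4 Multiome libraries. The means of the other groups were 12.9 ± 0.625 in Control, 5.22 ± 1.72 in DOCA, 10.1 ± 2.10 in Finerenone and 9.64 ± 0.105 in Spironolactone (SD, n = 2 each). In log2 terms, DOCA minus Control was -1.68 with the scATAC kit and -0.95 with the Multiome kit, and Amiloride minus DOCA was 2.39.

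Over the 5 groups the ratio to Fibroblast differed with p = 0.0167 by the exact permutation, or 0.05 after adjustment over the 3 measures, which does not fall below the threshold. Without Amiloride it had a permutation p of 0.0833, where 0.0417 is the smallest possible. It was also not under 0.05 without the Control scATAC (exact permutation p = 0.0833), DOCA scATAC (0.0667), Finerenone Multiome (0.0625) or Spironolactone Multiome (0.0521) library. An exact permutation test of 2 libraries against 2 within kits cannot go below p = 0.5, so no pair of groups was tested in this way.

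Both terms of the Amiloride ratio were at an extreme of the series, since MyoFib had its highest share there. Fibroblast nuclei were 1.99% of all nuclei in Amiloride, the lowest of the 9 libraries, and Endo nuclei were 12.5%, the highest. Per 100 Endo nuclei, Amiloride had the fewest MyoFib nuclei of the series, 5.45 (4.09 to 7.14). The same library was thus highest relative to Fibroblast and lowest relative to Endo.

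Relative to Endo, the DOCA libraries stood out little. They held 7.25 (2.28 to 17.7) and 6.00 (3.88 to 8.92) MyoFib nuclei per 100 Endo nuclei, against 10.0 (4.17 to 20.7) and 7.67 (5.14 to 11.1) in Control. Finerenone held 18.8 (8.09 to 38.6) and 7.86 (5.34 to 11.2), and Spironolactone 8.94 (4.35 to 16.6) and 7.15 (5.14 to 9.72). DOCA minus Control was -0.38 with a counting interval of -1.28 to 0.51, which includes 0. Per 100 Mac nuclei the libraries ran from 3.75 and 4.90 in DOCA to 100 in the Control Multiome library.

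**Figure D3:**
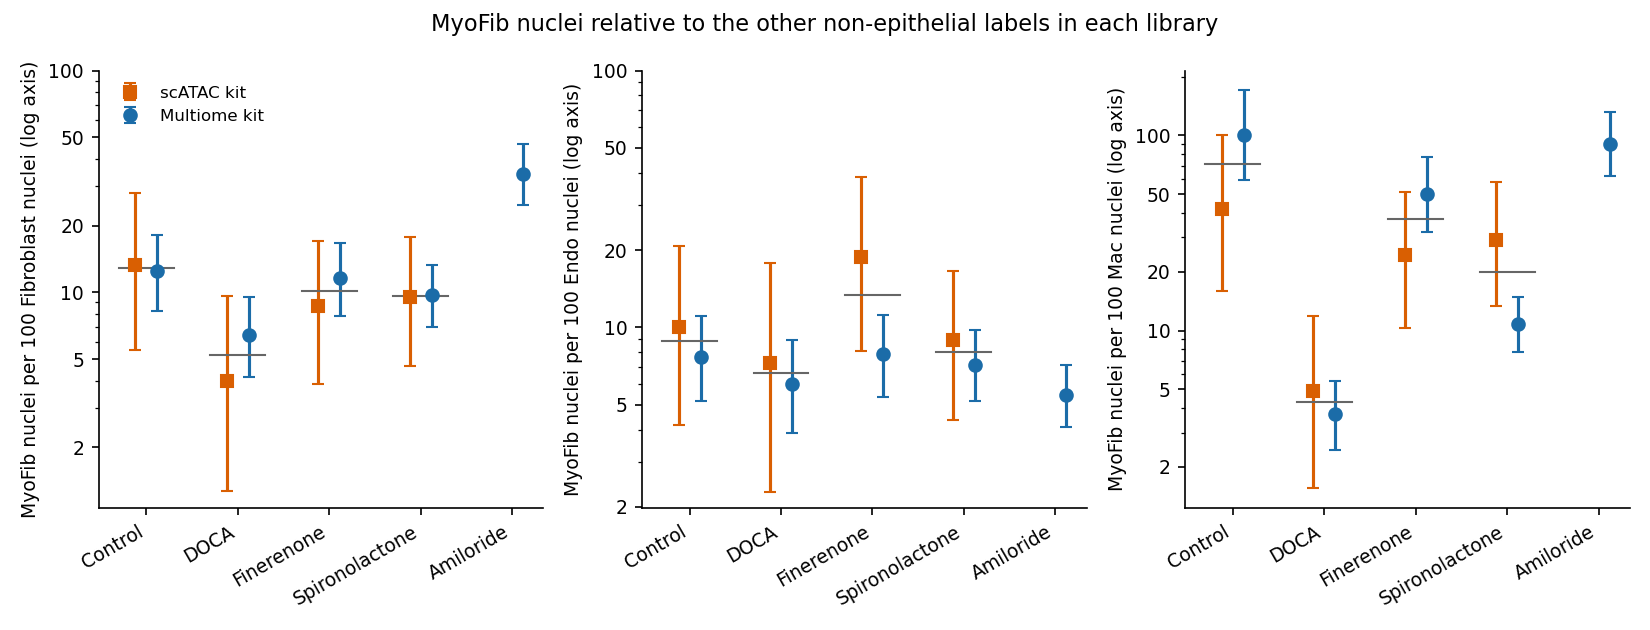
MyoFib nuclei per 100 Fibroblast (left), Endo (middle) and Mac nuclei (right) in each library by group, on log axes with exact 95% intervals, with kits as colors and the mean of 2 libraries as grey lines. DOCA is lowest relative to Fibroblast and Mac, and Amiloride is highest relative to Fibroblast at 34.1 and lowest relative to Endo at 5.45.

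The authors placed all nuclei on a UMAP, a map in which nuclei with like chromatin profiles lie near each other, so the surroundings of MyoFib nuclei could be described. Labels and map were made from the same data, and what follows is therefore a description without a test. Of the 15 nearest nuclei of each MyoFib nucleus, 80.1% on average were MyoFib, 10.6% Fibroblast, 2.72% Endo, 2.48% PST (proximal straight tubule, named after its value was seen) and 1.2% Mac. Of all nuclei, 3.67% were Fibroblast, 6.04% Endo, 18.4% PST and 2.73% Mac. Among these labels, only Fibroblast was thus more frequent around MyoFib nuclei than in the whole series. Besides MyoFib, Fibroblast was the only label above 5% of neighbours. With libraries thinned to equal numbers of nuclei, which left 76 MyoFib nuclei, Endo was also above it at 5.79%, still below its 6.04% of all nuclei. Among the 12 labels, MyoFib had the lowest share of neighbours with the own label, the others having 88.2 to 96.8%.

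Seen from the other labels, 241 of 1958 Fibroblast nuclei (12.3%) had a MyoFib nucleus among their 15 nearest, against 36 of 1455 Mac (2.47%), 68 of 3219 Endo (2.11%) and 22 of 9783 PST nuclei (0.225%). The median position of Fibroblast was also the closest to that of MyoFib, at 2.12 UMAP units, and Endo was next at 4.21. Single nuclei gave another order. From the 182 MyoFib nuclei with mostly MyoFib neighbours, the median distance to the nearest PST nucleus was 0.127, to LOH 0.147, to Mac 0.273, to PCT 0.307, to Fibroblast 0.446 and to Endo 1.71. MyoFib was the most compact label of the map, with a median distance of 0.181 to its own median position, followed by podocytes at 0.274.

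The MyoFib nuclei fell into a dense group and scattered nuclei. In 182 of the 223 (81.6%, interval 75.9 to 86.5%), at least 8 of the 15 neighbours were MyoFib, and no nucleus had between 6 and 9 such neighbours. The bound of 8 was set after the values were seen. In the dense group 96.8% of neighbours were MyoFib, 1.36% PST, 0.623% LOH (loop of Henle), 0.586% PCT, 0.476% Fibroblast and 0.183% Mac, and none were Endo. It held 189 nuclei of any label, among them 3 PST, 2 PCT, 1 LOH and 1 Mac but no Fibroblast or Endo nucleus.

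The 41 MyoFib nuclei outside that group lay mostly among other stromal nuclei. Fibroblast was the majority label around 25 of them, Endo around 7, Mac around 2, iPT (injured proximal tubule) around 2 and PC (principal cells) around 1, while 4 had no majority. Fibroblast made up 55.4% of the neighbours of these nuclei, Endo 14.8% and MyoFib 6.18%. A position on the map does not show that a label is wrong.

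**Figure D4:**
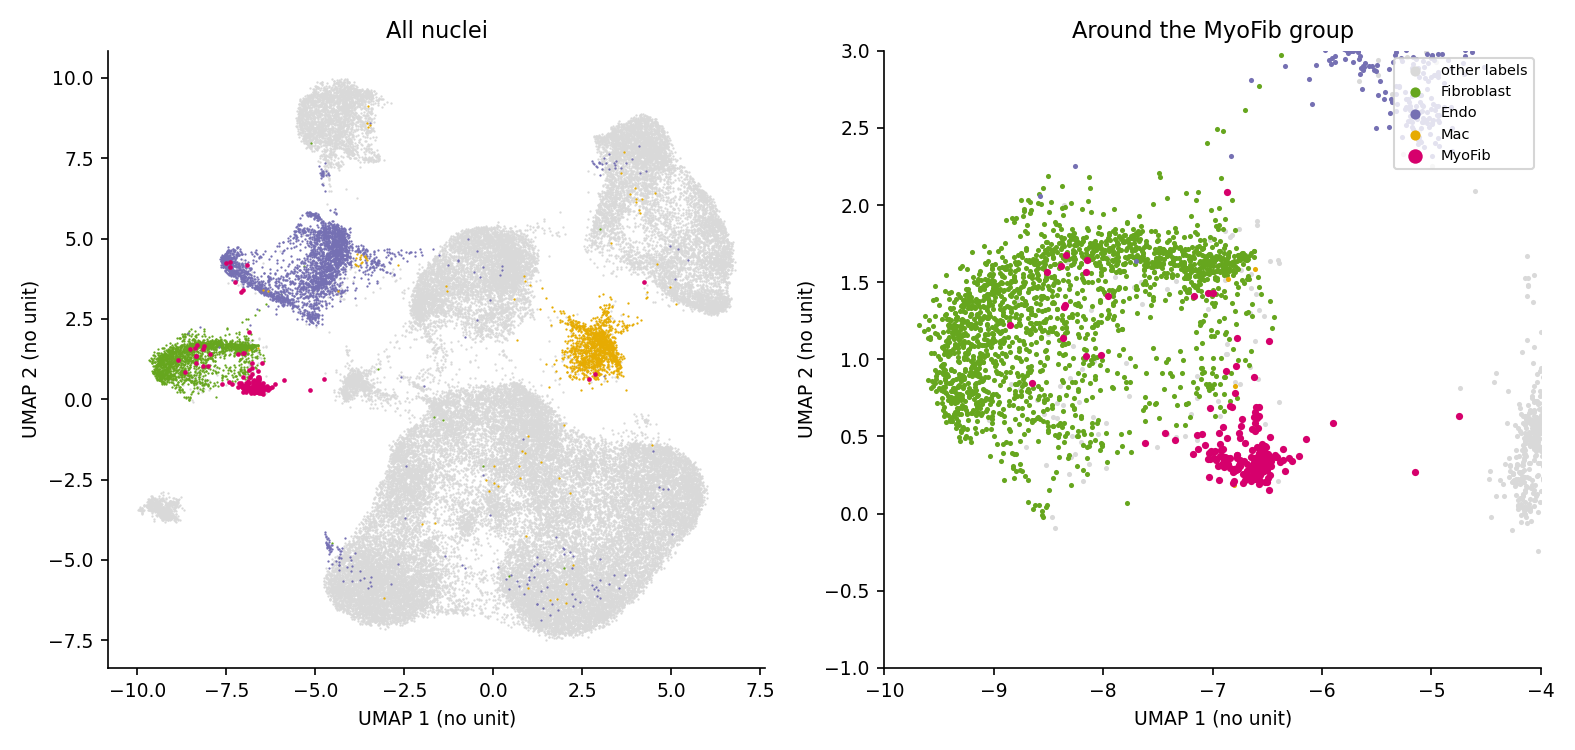
UMAP positions of all nuclei (left) and of the region around the MyoFib group (right), with UMAP 1 and UMAP 2 in units without physical meaning and each point a nucleus colored by label. MyoFib (magenta) forms a dense group of 182 nuclei, with 0.476% Fibroblast (green) and 1.36% PST nuclei among their neighbours. Of the 41 others, 25 lie mostly among Fibroblast and 7 mostly among Endo nuclei.

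The scattered nuclei were not evenly spread over libraries. None of the 8 and 5 MyoFib nuclei of the scATAC libraries of Control and DOCA lay outside the dense group, compared with 6 of 9 in Finerenone and 4 of 11 in Spironolactone. In the Multiome libraries, 5 of 31 lay outside in Control, 8 of 26 in DOCA, 6 of 33 in Finerenone, 8 of 44 in Spironolactone and 4 of 56 in Amiloride. The share inside the group was 33.3% in the Finerenone scATAC library (interval 7.49 to 70.1%) and 92.9% in Amiloride (82.7 to 98.0%), the lowest and the highest among libraries with nuclei on both sides.

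**Figure D5:**
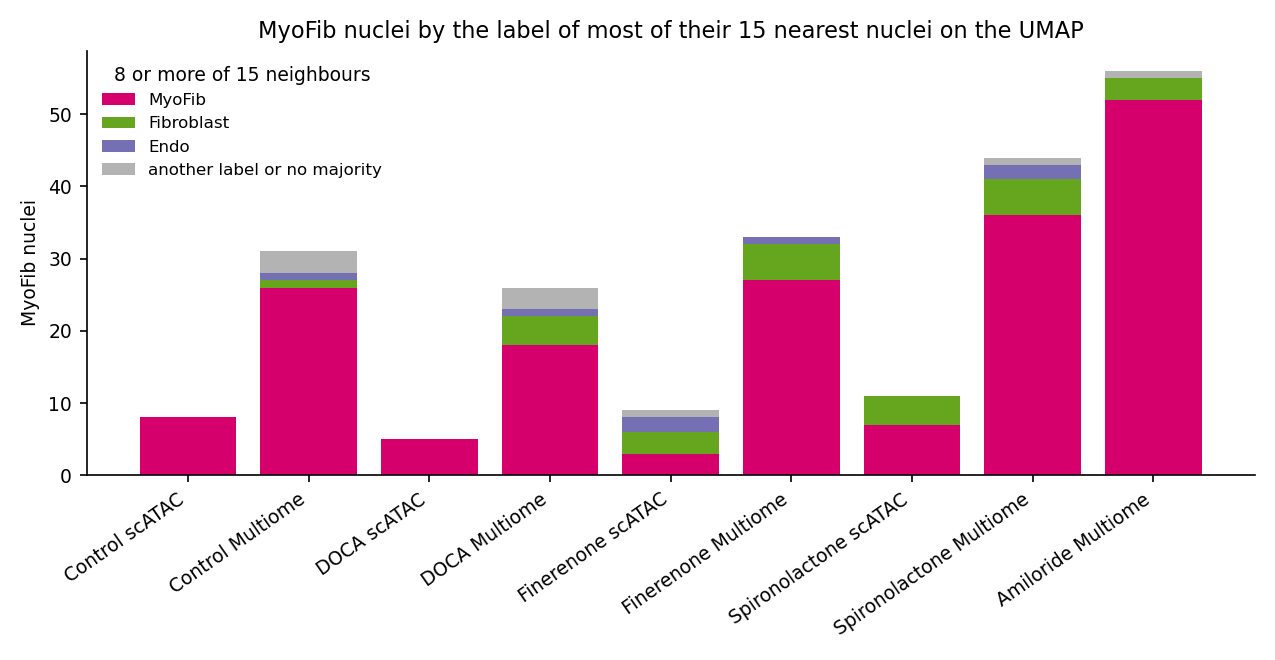
Number of MyoFib nuclei (y axis) in each library (x axis), stacked by the label of at least 8 of their 15 nearest nuclei on the UMAP. Most lie among MyoFib in every library except Finerenone scATAC, where 3 of 9 do.

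This bears on the group differences. Counting only MyoFib nuclei of the dense group, the Finerenone libraries held 0.165% and 0.440% of all nuclei (scATAC first), the DOCA libraries 0.202% and 0.197%, and the Control libraries 0.326% and 0.510%. With the scATAC kit this was 3 of 1817 nuclei in Finerenone and 5 of 2471 in DOCA, too few to order these libraries. Finerenone minus DOCA was 0.47 (limma adjusted p = 0.707) in place of 1.08, whereas DOCA minus Control was -1.0 (limma adjusted p = 0.148) and Amiloride minus DOCA 1.41 (limma adjusted p = 0.119), close to their values with all MyoFib nuclei. Among the 4 stromal labels, the dense group alone gave -1.60 for DOCA minus Control (limma adjusted p = 0.0387). Finerenone minus DOCA was 0.78 in place of 1.38 (limma adjusted p = 0.306). Spironolactone minus DOCA was 0.79 in place of 0.98 (limma adjusted p = 0.326). Amiloride minus DOCA, with a lone Amiloride library, was 1.52 in place of 1.45. The calls of all 3 drugs among these labels were lost, but the SE of Finerenone and Spironolactone minus DOCA also rose from 0.19 to 0.65. The Amiloride estimate did not shrink, so a lost call does not show that a difference rested on the scattered nuclei. The permutation over 5 groups had p = 0.217 for the share of the 4 labels and p = 0.208 for the ratio to Fibroblast when restricted in this way, so neither was past the threshold.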

How the data were processed

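Per the study's methods, nuclei were prepared from whole kidneys, reads were processed with Cell Ranger ATAC 1.1.0 against rn6, and nuclei were filtered, merged, corrected with Harmony and clustered in Signac 1.3.0. Any loss of MyoFib nuclei in that filtering is part of every share. The study killed rats at an early and a late time point, the late one 6 weeks after the steroid injections began. The age label of 6 weeks is the same number, so it may not be the age of the rats. Which time point each library comes from was not established here. The authors deposited a table of library, treatment and cell type label per nucleus, and UMAP coordinates, which are a score without physical unit. Other data types, per-nucleus quality and doublet calls were not analysed here.

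Treatment gave each library its group, and overlap of barcodes its kit (5 Multiome, 4 scATAC). Shares have Clopper-Pearson 95% intervals (scipy 1.17.1). Limma 3.58.1 (R 4.3.3) was fitted to log2 of (count + 0.5)/(total − count + 0.5). Its spread for MyoFib was 0.564 against 0.408 in its own residuals. Permutations ran through all 2880 assignments of groups within kits, one-sided in F. Counting intervals of log2 differences used 0.5 added to each count. Neighbours came from scikit-learn 1.9.0. Members, measures and lists were chosen with earlier results of these data known. No genes were named as results. Neighbouring labels were to be named from 5% of neighbours. Endo and Mac were named as parts of a denominator, and labels such as PST, LOH and PCT were also named below that bound.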

Additional observations from a re-analysis of the deposited data

How the results depend on the processing

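Counts of 5 to 56 MyoFib nuclei per library limit every comparison. Of 98 alternatives to the 5 contrasts of the share of all nuclei, 86 kept direction and side of the threshold, 10 brought MyoFib past it and 2 reversed the sign.

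The denominator brought most of these. With the 4 labels Endo, Fibroblast, MyoFib and Mac, DOCA minus Control was -1.47, Finerenone minus DOCA 1.38, Spironolactone minus DOCA 0.98 and Amiloride minus DOCA 1.45. Without PCT, PST and iPT, the first was -1.30, the second 1.29 and the last 1.62. The dense UMAP group among the 4 labels, chosen after the data were seen, gave -1.60 for DOCA minus Control and turned Finerenone minus Spironolactone to -0.013.

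Leaving out each library in turn gave -1.30 to -0.43 for DOCA minus Control, 0.95 to 1.21 for Finerenone minus DOCA, -0.012 to 0.95 for Spironolactone minus DOCA, 1.23 to 1.51 for Amiloride minus DOCA, 0.13 to 1.09 for Finerenone minus Spironolactone and -0.029 to 0.43 for the kit. Spironolactone minus DOCA was -0.012 without the Spironolactone scATAC library, Amiloride minus DOCA was 1.46 (limma adjusted p = 0.0288) without either Control library, and the kit difference was -0.029 without either.

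The exact permutation p over the groups ran from 0.217 to 0.517 for the share of all nuclei, from 0.0208 to 0.117 for the share of the 4 labels and from 0.0208 to 0.0833 for the ratio to Fibroblast with each library left out. Without the Amiloride group the ratio had a permutation p of 0.0833. The dense group of MyoFib nuclei gave a permutation p of 0.217 for the share of the 4 labels and 0.208 for the ratio, and nuclei of any label in that group gave 0.225 and 0.242. The cause of these shifts was not tested. With 5 or 50 neighbours, other libraries only or libraries thinned to equal size, the shares of neighbours were 73.9 to 80.6% for MyoFib, 10.6 to 14.5% for Fibroblast, 2.42 to 5.79% for Endo and 0 to 1.26% for Mac, with the highest Endo and the lowest Mac share after thinning.

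Libraries were matched across groups by kit, which stands as a term in the fits and keeps the permutations within kits. Replicate numbers in the labels were not used to pair libraries.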

Other observations

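Inside the dense UMAP group, MyoFib nuclei lay next to nuclei of their own library somewhat more often than their numbers give. Of the 15 neighbours of these nuclei, 25.0% on average came from the same library against 17.3% if the nuclei of the group were evenly mixed, 30.4% against 21.1% from the same group and 80.1% against 77.8% from the same kit. The values were not tested.

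The barcodes of 10 of the 223 MyoFib nuclei (4.48%) also occurred in another library, compared with 5.11% of all nuclei. No barcode was shared between MyoFib nuclei. Of the 11 partner nuclei 4 were labelled iPT, which holds 9.81% of all nuclei, and so few partners do not bear a comparison.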
